A study of Saccharomyces cerevisiae with 14 samples.

Results

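Sulfate assimilation and methionine synthesis in *S. cerevisiae* were followed here through 10 open reading frames, *MET3*, *MET14*, *MET16*, *MET5*, *MET10*, *MET17*, *MET6*, *SAM1*, *SAM2* and *MET2*, chosen by name from the 6387 rows of the table. All 10 were measured on every array, and none was removed by a filter. RNA came from cultures of strain NRRL Y-12632 grown in synthetic complete (SC) medium, treated with 30 mM 5-hydroxymethylfurfural (HMF) after 6 h of growth or left untreated as control. HMF is a furan aldehyde that forms when plant biomass is hydrolyzed and that slows yeast growth. Each treatment was sampled as 2 biological replicates at 10, 30 and 60 min but only once at 120 min, which leaves that time without a replicate and gives 7 HMF and 7 control arrays. The 7 arrays of a treatment may be serial samples of the same cultures, and so not independent of each other. Each array gives the log2 ratio of its test sample, labeled with Cy3, to untreated RNA of 0 min, labeled with Cy5. The dyes were not swapped, and a dye bias of a single gene would remain in its ratio to 0 min, although it is shared by both treatments.

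Yeast takes up sulfate, activates it with ATP and reduces it to sulfide, which is then joined to a carbon skeleton derived from homoserine to give homocysteine. Homocysteine is methylated to methionine, and methionine is turned into S-adenosylmethionine (AdoMet), the methyl donor of the cell. The genes of this route are known to be switched on together by the activator Met4p, with Cbf1p, Met28p, Met31p and Met32p, when sulfur amino acids are scarce, and the ubiquitin ligase subunit Met30p holds Met4p in check. Many genes of amino acid biosynthesis, several of this route among them, also respond to the general activator Gcn4p.

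The median log2 ratio of all genes differed between arrays, from -0.32 to 1.29. Values below are therefore log2 ratios to 0 min minus the median of their array. As deposited, the typical gene differed between treatments by -0.66 (10 min), -0.37 (30 min), 0.26 (60 min) and 0.014 (120 min), with -0.19 for the mean of the 4 times. The differences given here are relative to that shift. In the RNA of a whole culture, a smaller share of cells with a transcript and less transcript per cell cannot be told apart.

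Of the 10 genes, 4 rose with HMF on average over the lag phase, none fell, and 6 did not pass the test. The 4 were *MET3* and *MET14*, which activate sulfate, and *MET2* and *MET17*, which make O-acetylhomoserine and join it to sulfide. Calls are from limma with p-values adjusted by Benjamini-Hochberg over all 6387 genes and a threshold of 0.05. By the same rule 5.09% of all genes were higher with HMF and 6.25% were lower, or 11.3% in either direction. The median of the 10 mean differences was 0.34 (range -0.37 to 1.34), against 0.00 over all genes. With the log2 ratios as deposited none of the 10 passed, and 118 genes (1.85%) passed in all, 25 of them higher, in place of 724 genes with 325 higher after centring. At all 4 times the group mean with HMF was above that of the control in 5 of the 10, *MET5* beside the 4 that passed (18.1% of all genes), and below it in 2, *MET6* and *SAM1* (17.8%). Without adjustment 5 had a p of at most 0.05, against 25.1% of all genes, *MET10* being the additional one. *MET3* and *MET14* are on the list of induced genes that the study drew from these arrays, so that their values here are not independent of that choice.

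**Figure D1:**
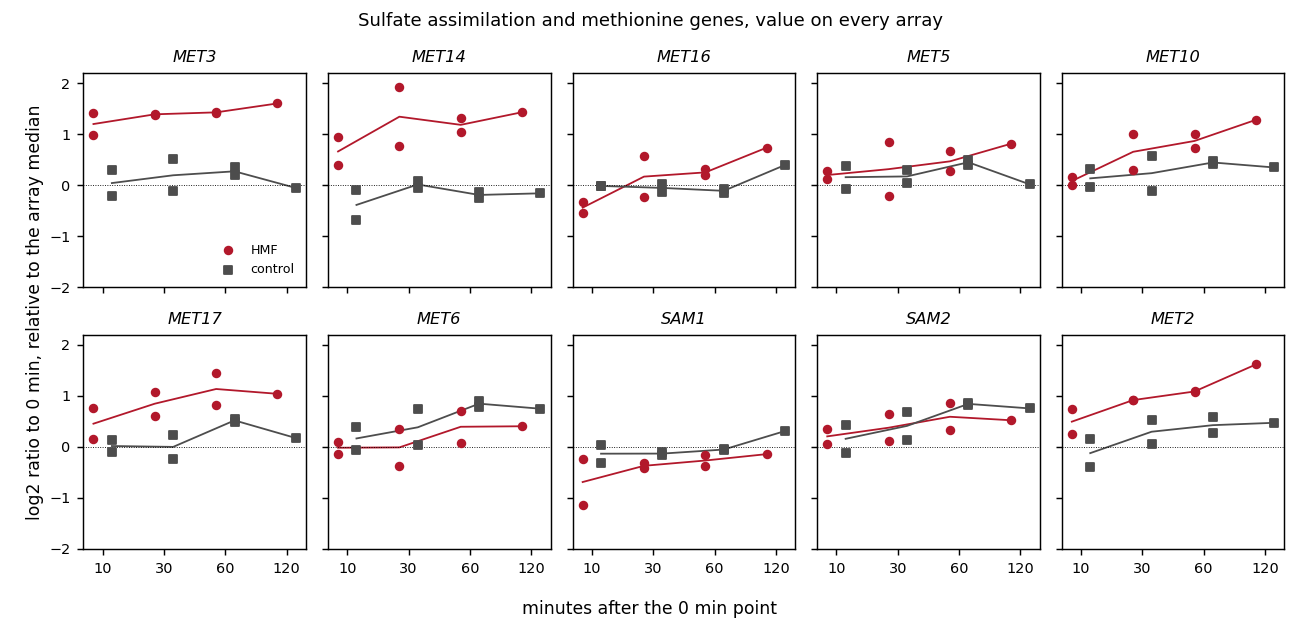
Log2 ratio to 0 min, relative to the array median (vertical axis), at 10, 30, 60 and 120 min (horizontal axis, evenly spaced) for each of the 10 genes, with HMF as circles and control as squares, 1 point per array and lines through the group means. In *MET3* and *MET14* all 7 HMF arrays lie above all 7 control arrays, while over all times the treatments overlap in each of the other genes.

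*MET3* (YJR010W) encodes ATP sulfurylase, which joins sulfate to ATP in the first step of the route. With HMF its values were 1.42 and 0.99 (10 min), 1.40 and 1.39 (30 min), 1.43 and 1.44 (60 min) and 1.61 (120 min). In the control they were -0.21 and 0.31 (10 min), -0.11 and 0.51 (30 min), 0.20 and 0.36 (60 min) and -0.05 (120 min). All 7 HMF arrays were thus above all 7 control arrays, which held for 2.36% of all genes. The HMF arrays ran from 0.99 to 1.61, with replicates close together at 30 and 60 min but not at 10 min. The group means with HMF were 2.30-fold above 0 min at 10 min, 2.63-fold at 30 min, 2.70-fold at 60 min and 3.05-fold at 120 min. A group mean at least 2-fold above 0 min at all 4 times with HMF was found in 1.33% of all genes, and in *MET3* alone among the 10. The mean difference between HMF and control was 1.29 (SE 0.16, adjusted p = 0.0019), or 2.45-fold, which ranked 67 from the highest among the 6387 genes.

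*MET14* (YKL001C) encodes adenylylsulfate kinase, which adds the phosphate that turns the product of ATP sulfurylase into PAPS. Its values with HMF were 0.39 and 0.94 (10 min), 0.77 and 1.93 (30 min), 1.33 and 1.05 (60 min) and 1.44 (120 min). In the control they were -0.68 and -0.08 (10 min), -0.05 and 0.09 (30 min), -0.13 and -0.24 (60 min) and -0.15 (120 min). Again the treatments did not overlap. With HMF the spread between replicates was wider than in *MET3*, above all at 30 min, while in the control it was narrower than in *MET3* at 30 and 60 min. The mean difference was 1.34 (SE 0.22, adjusted p = 0.0056), or 2.52-fold.

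The enzymes that reduce the activated sulfate did not pass. *MET16* (YPR167C), the PAPS reductase that yields sulfite, had values of -0.32 and -0.55 (10 min), -0.22 and 0.57 (30 min), 0.20 and 0.32 (60 min) and 0.74 (120 min) with HMF. Its control values were -0.01 and -0.01 (10 min), -0.13 and 0.03 (30 min), -0.07 and -0.14 (60 min) and 0.40 (120 min). *MET16* was thus below the control on both HMF arrays at 10 min and above it on both at 60 min, with a mean difference of 0.12 (95% interval -0.22 to 0.47, adjusted p = 0.68). How often the arrays of a single time separate in this way was not counted over all genes. The test of a change of the difference with time did not pass (unadjusted p = 0.22 in limma), and on the deposited scale the mean difference was -0.068.

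Sulfite reductase, which makes sulfide from sulfite, is built of subunits encoded by *MET5* (YJR137C) and *MET10* (YFR030W). *MET5* lay between -0.21 and 0.85 with HMF (median 0.29) and between -0.06 and 0.50 in the control (median 0.30). Its mean difference was 0.25 (95% interval -0.19 to 0.69, adjusted p = 0.49). *MET10* had values with HMF of 0.00 and 0.17 (10 min), 0.31 and 1.01 (30 min), 0.74 and 1.00 (60 min) and 1.29 (120 min), against -0.04 and 0.32, -0.10 and 0.59, 0.42 and 0.48, and 0.35 in the control. The treatments overlapped at 10 and 30 min. Both HMF arrays were above both control arrays at 60 min, which was likewise not counted over all genes. The mean difference of *MET10* was 0.43 (SE 0.18, adjusted p = 0.17), and the adjusted p was 0.032 with a replicate block at each time and 0.048 with a replicate block over all times. The gap between the subunits, *MET5* minus *MET10* on the same array, had a median of -0.33 with HMF and -0.01 in the control. Its mean difference between treatments was -0.18 (exact two-sided permutation test within times, p = 0.060, adjusted p = 0.12 over 2 gene pairs, smallest p possible 0.0046).

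*MET2* (YNL277W) encodes homoserine O-acetyltransferase, which commits homoserine to methionine. Its values with HMF were 0.75 and 0.25 (10 min), 0.92 and 0.92 (30 min), 1.09 and 1.09 (60 min) and 1.62 (120 min). In the control they were 0.15 and -0.40 (10 min), 0.54 and 0.06 (30 min), 0.26 and 0.59 (60 min) and 0.47 (120 min). The group mean with HMF was above that of the control at all 4 times, as in 18.1% of all genes, with 1 array per treatment at 120 min. Of the 7 HMF arrays 6 were above every control array, and how often this occurs over all genes was not counted. The mean difference was 0.76 (SE 0.16, adjusted p = 0.017), or 1.69-fold.

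*MET17* (YLR303W), also called *MET15* and *MET25*, encodes O-acetylhomoserine sulfhydrylase, which takes the product of Met2p and the sulfide of sulfite reductase to homocysteine. It had 0.76 and 0.15 (10 min), 0.61 and 1.09 (30 min), 0.83 and 1.44 (60 min) and 1.04 (120 min) with HMF. The control had 0.13 and -0.09 (10 min), -0.23 and 0.23 (30 min), 0.56 and 0.49 (60 min) and 0.17 (120 min). The group mean with HMF was above that of the control at all 4 times, as in 18.1% of all genes. At 10 min the lower HMF array was close to the higher control array. The mean difference was 0.69 (SE 0.18, adjusted p = 0.041), or 1.62-fold. This call was the least firm of the 4: the adjusted p was 0.12 after quantile normalization, 0.061 without the 120 min arrays, and 0.033 to 0.093 over the 12 replicated arrays left out in turn. It was above 0.05 without any of 8 of them, which were replicate 1 of 10 min and replicate 2 of 30 and 60 min with HMF, and, of the control, replicate 1 of 30 min and both replicates of 10 and 60 min.

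The genes that follow homocysteine did not pass. *MET6* (YER091C), the cobalamin-independent methionine synthase, lay between -0.37 and 0.71 with HMF (median 0.10) and between -0.05 and 0.91 in the control (median 0.74). Its mean difference was -0.34 (95% interval -0.80 to 0.11, adjusted p = 0.34). *SAM1* (YLR180W), which encodes an AdoMet synthetase, had -0.24 and -1.13 (10 min), -0.32 and -0.42 (30 min), -0.38 and -0.15 (60 min) and -0.14 (120 min) with HMF. In the control *SAM1* had 0.05 and -0.31, -0.15 and -0.11, -0.06 and -0.05, and 0.31 at the same times. The group mean of *SAM1* with HMF was below that of the control at all 4 times, as in 17.8% of all genes. Its mean difference was -0.37 (95% interval -0.74 to 0.01, adjusted p = 0.21). Leaving out the first HMF replicate of 10 min gave -0.48, which passed (adjusted p = 0.048).

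*SAM2* (YDR502C), the other AdoMet synthetase gene, lay between 0.05 and 0.86 with HMF (median 0.36) and between -0.12 and 0.86 in the control (median 0.68). Its mean difference was -0.12 (95% interval -0.53 to 0.29, adjusted p = 0.75). The gap *SAM1* minus *SAM2* on the same array had a median of -0.71 with HMF and -0.75 in the control, and its mean difference between treatments was -0.25 (exact two-sided permutation test within times, p = 0.18, adjusted p = 0.18 over 2 gene pairs). *SAM1* and *SAM2* are close paralogs, and how far their oligos cross-hybridize was not tested.

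**Figure D2:**
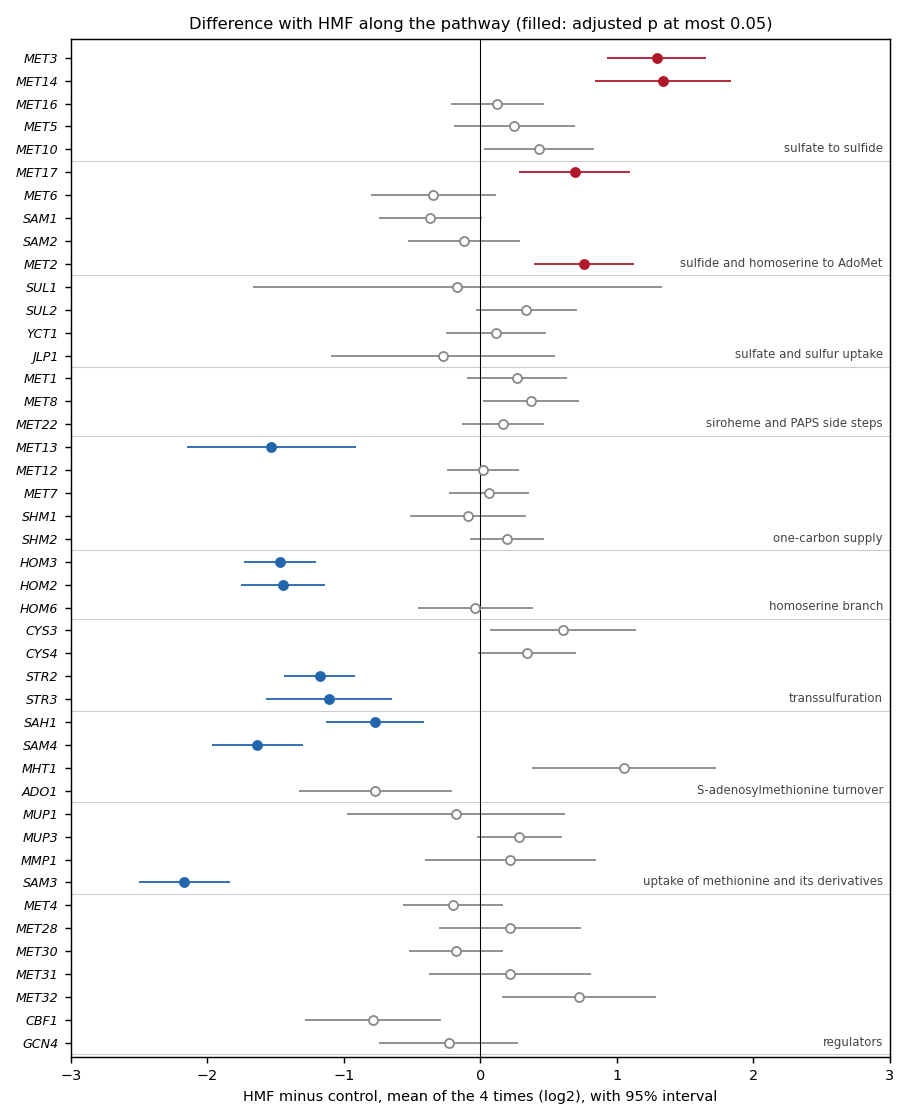
Mean over the 4 times of HMF minus control (horizontal axis, log2, each array centred on its median) with its 95% interval from limma, for the 10 genes (upper 2 blocks) and 34 further genes grouped by role. Filled points have an adjusted p of at most 0.05 over all genes, which 4 of the 10 reached above 0 and 8 of the 34 below 0.

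At single times none of the 10 genes passed. The smallest adjusted p at each time belonged to *MET3*, whose differences were 1.16, 1.20, 1.16 and 1.66 at 10, 30, 60 and 120 min, with adjusted p-values of 0.070, 0.072, 0.12 and 0.27. Without adjustment, 2 of the 10 had a p of at most 0.05 after 10 min and 3 at each later time, against 17.7%, 15.5%, 11.8% and 7.55% of all genes at the 4 times in order. After adjustment 2.14%, 2.57%, 0.971% and 0.204% of all genes passed at these times. With 1 of the 12 replicated arrays left out, the 137, 164, 62 and 13 genes behind these shares became 11 to 111, 6 to 124, 1 to 50 and 1 to 6. With a replicate block over all times *MET3* passed at 10 min (adjusted p = 0.046) and at 30 min (0.049). On the deposited scale, *MET17* and *MET2* were below the control at 10 min, by -0.23 and -0.051, and above it at the later times. *MET5* was below the control there at 10 and 30 min, by -0.63 and -0.20, and above it at 60 and 120 min. *MET3* and *MET14* stayed above the control at all 4 times.

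The median difference of the 10 genes was 0.045 (10 min), 0.32 (30 min), 0.39 (60 min) and 0.83 (120 min), against -0.02 to 0.02 over all genes. In the 5 genes from sulfate to sulfide it was 0.042, 0.42, 0.42 and 0.93, and in the 5 from homoserine and sulfide to AdoMet 0.047, -0.035, -0.22 and -0.23. These are descriptions of the medians, the last of them on 1 array per treatment. Of the latter 5 genes *MET2* and *MET17* were above the control at all 4 times. The differences of these 5 at 120 min ran from -0.45 to 1.14, so that the median does not describe each gene. A change of the difference with time passed in none of the 10 genes, the smallest unadjusted p being 0.22, and in none of all genes after centring, while 4.56% of genes were below 0.05 before adjustment (limma).

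Whether the 0 min RNA was 1 pool for all arrays or came from each culture is not given in the sources used here, and arrays that share it also share its error. Across the 14 arrays the 10 genes did not follow a single course. *MET6* and *SAM2* ran closely together, with a Pearson's r of 0.93 over all arrays, 0.96 over the 7 HMF arrays and 0.99 over the 7 control arrays. *MET5* and *MET10* had 0.82, 0.83 and 0.73 in the same order. *MET3* and *MET14* had 0.88 over all arrays but 0.22 within HMF and 0.62 within control, so that the high value over all arrays rests in part on the gap between treatments.

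The 5 genes of the table with the course most like that of *MET3* over the 14 arrays were *ARI1* (r = 0.96), YAR073W (0.96), *GRE2* (0.94), *PDR5* (0.94) and YLR108C (0.93). *ARI1* and *GRE2* encode NADPH-dependent aldehyde reductases, and *PDR5* a drug efflux pump of the plasma membrane. YAR073W is a near copy of other genes of IMP dehydrogenase, and its oligo might not separate them. Within the 7 HMF arrays their r with *MET3* ran from -0.25 for *PDR5* to 0.80 for *ARI1*, and within the 7 control arrays from -0.33 for *GRE2* to 0.91 for YAR073W. The mean difference with HMF was 4.44 in *ARI1*, 2.92 in *GRE2* and 4.20 in *PDR5*, against 1.29 in *MET3* and 1.29 in YAR073W. For *MET6* the closest genes were *PSD1* (r = 0.94), *SAM2* (0.93), *YIP3* (0.93), *THI7* (0.92) and *CHO1* (0.90), none of which passed for HMF against control. *PSD1* and *CHO1* encode enzymes of phospholipid synthesis, and *THI7* a thiamine transporter. Their r with *MET6* was between 0.82 and 0.96 within HMF and between 0.92 and 0.99 within control. The genes were picked by their r over these same arrays, so that the values within each treatment are not separate evidence of likeness.

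A wider list of 34 genes of sulfur and methionine metabolism was examined in the same fit, and all 34 were on the arrays. For the mean of the 4 times 8 of them fell with HMF and none rose, against 6.25% and 5.09% of all genes. Of the 8, *MET13*, *HOM2*, *HOM3*, *STR2*, *SAM3* and *SAM4* are on the list of repressed genes that the study drew from these arrays, so that they are not independent of that choice. The group mean with HMF was below that of the control at all 4 times in 12 of the 34, the 8 among them, against 17.8% of all genes. With the log2 ratios as deposited 7 of the 8 passed, *SAH1* being the exception. With a replicate block at each time 9 were lower and 2 higher, the additional genes being *ADO1*, lower, and *CYS3* and *MHT1*, higher. A replicate block over all times gave 10 lower and 3 higher, with *CBF1*, lower, and *MET32*, higher, in addition to these. At 10, 30 and 60 min taken singly, 4, 5 and 4 of the 34 passed as lower, and *SHM2* alone passed as higher, at 30 min. Of all genes 2.14%, 2.57% and 0.971% passed at these times in either direction. As deposited, *HOM3* at 10 min was the only one of these single-time calls to pass (difference -2.73, adjusted p = 0.028 in limma).

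**Figure D3:**
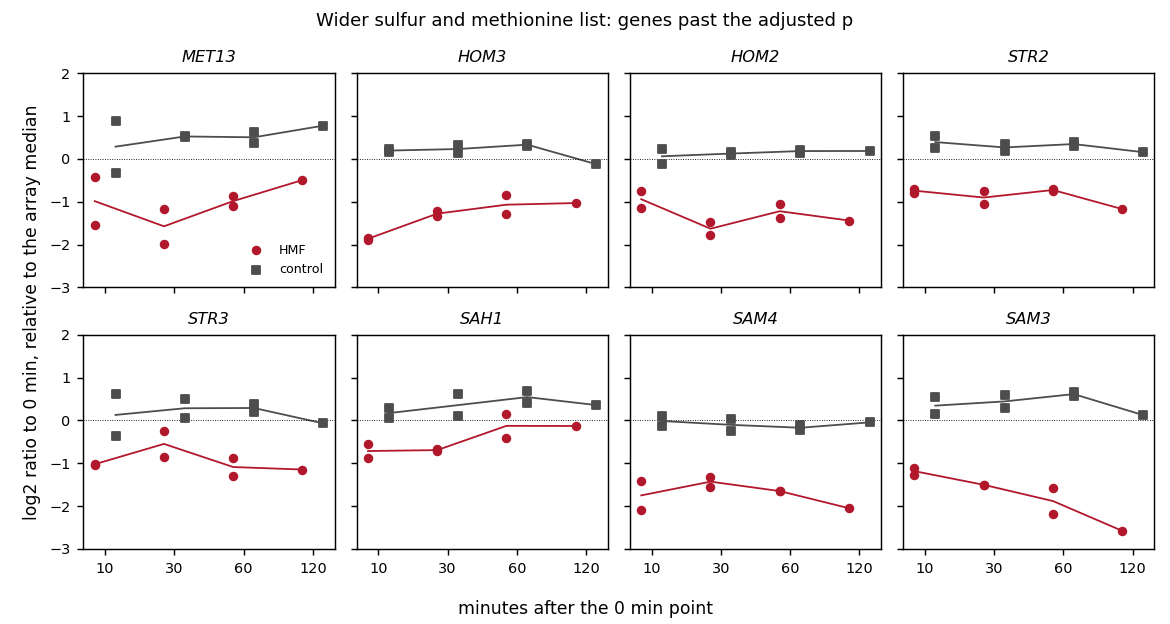
Log2 ratio to 0 min, relative to the array median (vertical axis), by minutes after 0 min (horizontal axis, evenly spaced) for the 8 genes of the wider list that passed, with HMF as circles, control as squares and lines through the group means. In *SAM3* the HMF arrays lie between -2.58 and -1.10 and the control arrays between 0.13 and 0.66.

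*SAM3* (YPL274W), which encodes the AdoMet permease of the plasma membrane, had the lowest mean difference of the list. Its values with HMF were -1.10 and -1.27 (10 min), -1.50 and -1.51 (30 min), -2.18 and -1.58 (60 min) and -2.58 (120 min), against 0.15 and 0.54, 0.28 and 0.60, 0.57 and 0.66, and 0.13 in the control. No HMF array reached the lowest control array, as in 3.84% of all genes. The mean difference was -2.17 (SE 0.15, adjusted p = 1.5e-04), or 4.50-fold lower, which ranked 9 from the lowest among all genes. *SAM3* also passed at every single time after centring, but at none with the ratios as deposited (adjusted p from 0.093 at 10 min to 0.54 at 120 min). *SAM4* (YPL273W), whose product uses AdoMet to methylate homocysteine, lay between -2.08 and -1.31 with HMF and between -0.25 and 0.11 in the control. Its mean difference was -1.64 (SE 0.15, adjusted p = 6.0e-04). The other genes of uptake, *MUP1* and *MUP3* for methionine and *MMP1* for S-methylmethionine, had mean differences of -0.18, 0.29 and 0.22 and did not pass. *MHT1*, whose product methylates homocysteine from S-methylmethionine, had 1.05 (SE 0.29, adjusted p = 0.055).

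In the branch that supplies homoserine, *HOM3* (YER052C), aspartate kinase, and *HOM2* (YDR158W), aspartate semialdehyde dehydrogenase, fell. *HOM3* lay between -1.89 and -0.85 with HMF and between -0.12 and 0.35 in the control, and *HOM2* between -1.78 and -0.75 with HMF and between -0.11 and 0.23 in the control. Neither gene overlapped between treatments, and the mean differences were -1.47 (SE 0.12, adjusted p = 3.9e-04) and -1.45 (SE 0.13, adjusted p = 6.4e-04). *HOM6*, homoserine dehydrogenase, the last enzyme before the substrate of Met2p, had a mean difference of -0.037 (95% interval -0.46 to 0.38).

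*MET13* (YGL125W) encodes the methylenetetrahydrofolate reductase whose product carries the methyl group that Met6p places on homocysteine. It lay between -1.98 and -0.42 with HMF and between -0.32 and 0.89 in the control, with no overlap. The mean difference was -1.53 (SE 0.27, adjusted p = 0.0082). *MET12*, which encodes another reductase of this kind, had 0.021 (95% interval -0.24 to 0.29). *SHM2*, the cytosolic serine hydroxymethyltransferase, passed at 30 min, with 1.01 and 1.36 with HMF against 0.24 and 0.06 in the control (difference 1.03, SE 0.21, adjusted p = 0.044). As deposited, the 30 min difference of *SHM2* was 0.69 and did not pass (adjusted p = 0.90). At 120 min the single HMF array of *SHM2* was at -0.52 and the control at 0.42, and its mean difference of 0.19 did not pass. Without the 120 min arrays *SHM2* passed for the mean of the remaining times, higher with HMF.

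Transsulfuration moves sulfur between homocysteine and cysteine, and the genes of its opposing directions are given apart; the difference between them was not tested. *STR2* (YJR130C) and *STR3* (YGL184C), which lead from cysteine to homocysteine, fell by 1.18 (SE 0.11, adjusted p = 7.6e-04) and by 1.11 (SE 0.20, adjusted p = 0.0092) on the log2 scale. *STR2* lay between -1.17 and -0.70 with HMF and between 0.16 and 0.54 in the control, and in *STR3* 6 of the 7 HMF arrays were below every control array. How often 6 of the 7 are below was not counted over all genes. *CYS3* and *CYS4*, which lead from homocysteine to cysteine, had mean differences of 0.61 (SE 0.24, adjusted p = 0.15) and 0.34 (SE 0.16, adjusted p = 0.23). *SAH1* (YER043C), which recovers homocysteine from S-adenosylhomocysteine, fell by 0.77 (SE 0.16, adjusted p = 0.015) on the log2 scale. *ADO1*, the adenosine kinase that takes up the other product of Sah1p, had -0.77 (SE 0.25, adjusted p = 0.085).

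The genes that surround sulfate reduction did not pass. *SUL1* and *SUL2* encode sulfate permeases, and *SUL2* had a mean difference of 0.34 (SE 0.16, adjusted p = 0.24). *SUL1* varied widely between replicates, with 2.84 and 1.24 with HMF at 30 min, against 3.62 and 0.19 for the control. The group means of *SUL1* with HMF were 2.68, 2.04 and 2.02 at 10, 30 and 60 min, against 1.20, 1.90 and 0.73 in the control. Only on the single arrays of 120 min was *SUL1* lower with HMF, at -0.072 against 3.50 in the control. *MET1* and *MET8*, which make the siroheme of sulfite reductase, had 0.27 and 0.37, and *MET22*, which clears the nucleotide left by PAPS reductase, had 0.17. *YCT1*, a cysteine transporter, and *JLP1*, a sulfonate dioxygenase, had 0.12 and -0.28, and *MET7* and *SHM1* of the one-carbon supply had 0.064 and -0.088, none of which passed. None of the 7 genes of regulators passed, although *MET32* and *CBF1* did with a replicate block over all times, *MET32* also without replicate 1 of HMF at 30 min and *CBF1* without replicate 2 of the control at 30 min. *MET32* had 0.72 (SE 0.25, adjusted p = 0.10), *MET31* 0.22, *MET28* 0.22, *MET4* -0.20, *MET30* -0.18 and *GCN4* -0.23, and *CBF1* had -0.78 (SE 0.22, adjusted p = 0.054). These values are of transcripts and do not report the activity of the factors.

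**Figure D4:**
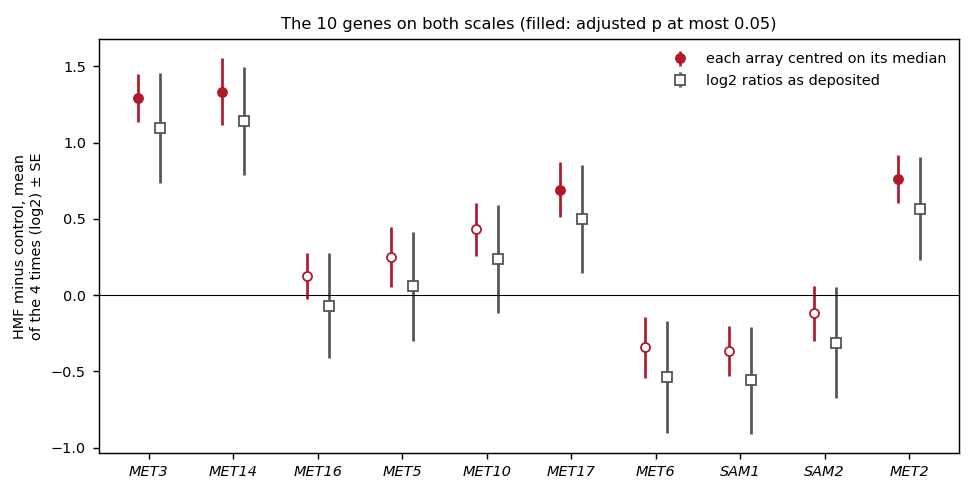
Mean over the 4 times of HMF minus control (vertical axis, log2, with SE) for the 10 genes after centring each array on its median (circles) and with the log2 ratios as deposited (squares), where filled symbols have an adjusted p of at most 0.05. All 10 values are lower by the same amount on the deposited scale and their SEs are larger, and *MET16* lies on either side of 0.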

How the data were processed

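Deposited values are log2 ratios of the test sample (Cy3) to untreated 0 min RNA (Cy5), 1 for each of 6387 open reading frames and 14 arrays. Per the methods, these came from GenePix scans: the authors took median signals less local background, checked spots manually and scaled slides by a CAB spike-in. How spots printed in duplicate were combined is not given in the sources used here, and no genome build is named, so that no coordinates are given. Symbols for 5840 rows came from RefSeq. The signals themselves were left aside. Precision is set by how few arrays and cultures there are. The methods describe replicate experiments per condition, with cells harvested at successive times. Arrays of a treatment may thus be repeated samples of the same few cultures, which the labels do not state. The main fit and the permutation tests took the 14 arrays as independent. Their p-values, and separations of all HMF from all control arrays, might therefore look firmer than the cultures allow.

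Each array was centred on its median. Means of the 8 treatment-by-time groups were fitted with limma 3.58.1 (R 4.3.3; lmFit, eBayes with default prior; 6 residual and 2.53 prior degrees of freedom), and p-values were adjusted over all genes. Single arrays at 120 min are taken to vary like the other groups. Errors are moderated SEs. The fit was tested on simulated data. Alternatives were the deposited scale, quantile normalization, blocks, robust eBayes, a 2-fold criterion, the methods' two-factor test and arrays left out. The labels state no pairing, and neither the main fit nor the permutation tests used one. Only the blocks took arrays of the same replicate number to belong together, within a time or over all times. Replicate 1 minus replicate 2 correlated across genes between HMF and control by 0.31, 0.28 and 0.17 at 10, 30 and 60 min. Between groups of different times the correlation was 0.016 to 0.36, and 11 of all 15 pairs of groups were above 0.1.

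All 10 members are named, and of the wider list of 34 genes those past the adjusted p, with the others given by value. For likeness, the 5 genes of highest r with *MET3* and with *MET6* are named. Promoter motifs were not searched. The members and lists were chosen with earlier results of these data known. The 30 min value of *SHM2* and the pairs of members whose correlation is given were chosen after values were seen.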

Additional observations from a re-analysis of the deposited data

How the results depend on the processing

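For the mean of the 4 times, 4 of the 10 genes passed after centring, 0 with the log2 ratios as deposited, 3 after quantile normalization or without the 120 min arrays, 5 with a replicate block over all times or at each time, 4 with robust eBayes or the 2-fold criterion, and 4 and 3 in the methods' two-factor test before and after adjustment. With 1 of the 12 replicated arrays left out, the mean difference was 1.21 to 1.37 in *MET3* and 1.19 to 1.48 in *MET14*. It was 0.69 to 0.83 in *MET2*, 0.61 to 0.77 in *MET17* and -0.48 to -0.25 in *SAM1*. Over all genes the count of 724 became 118 as deposited, 523 with quantile normalization, 1077 and 1062 with the blocks, and 497 to 726 with an array left out. The methods' two-factor test called 1661 before adjustment. It was run here without the authors' filter on signal and without their 2-fold criterion, so that the count is not theirs. All-gene counts at 10, 30, 60 and 120 min were 137, 164, 62 and 13, against 43, 17, 12 and 1 as deposited, 10, 23, 48 and 7 after quantile normalization, 456, 335, 172 and 14 with a replicate block over all times and 286, 226, 26 and 0 with one at each time, and, with an array left out, 11 to 111, 6 to 124, 1 to 50 and 1 to 6. A change with time was called in 5 genes as deposited and in 0 in the other fits run for it. Of the 10, 0 passed at single times as deposited, after quantile normalization, with a replicate block at each time and without any of the 12 replicated arrays, while the replicate block over all times gave 1 at 10 min and 1 at 30 min. Robust eBayes, the 2-fold criterion, the two-factor test and the fit without 120 min were run for the mean only. On the deposited scale the adjusted p was 0.12 for *MET3* (1.10), 0.095 for *MET14* (1.14), 0.49 for *MET2* (0.57) and 0.61 for *MET17* (0.50). The difference of *MET16* reversed there, at -0.068 against 0.12. With arrays left out, *SAM1* minus *SAM2* was -0.36 to -0.13 and *MET5* minus *MET10* -0.24 to -0.12. The cause of these changes was not tested.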
